A study of Mus musculus with 64 samples.

Results

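Neuropeptides are cut from longer precursor proteins in the secretory pathway of neurons, and the mRNA of the precursor is the level at which synthesis is usually followed. The 10 genes described here encode the precursors of enkephalin (Penk), dynorphin (Pdyn), nociceptin (Pnoc), substance P and neurokinin A (Tac1), CART peptides (Cartpt), neuropeptide Y (Npy), somatostatin (Sst), cholecystokinin (Cck), vasoactive intestinal peptide (Vip) and corticotropin-releasing hormone (Crh). They were chosen by gene name, by a rule that uses no measured value but was set with earlier results of these data known, and are 10 of the 46785 genes and 17 of the 112714 transcripts in the tables. In the striatum, which includes the nucleus accumbens (NAc), Penk marks the medium spiny neurons that carry dopamine D2 receptors and Tac1 and Pdyn those that carry D1 receptors. In the cortex, Sst, Vip and Npy mark classes of inhibitory interneurons, and Cck is made by interneurons and pyramidal neurons.

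RNA was measured in the NAc and the prefrontal cortex (PFCx) of adult male C57BL/6N mice aged 8 to 10 weeks, 2 h after a single intraperitoneal injection. The drugs were ketamine (20 mg/kg), haloperidol (1 mg/kg), venlafaxine (16 mg/kg), risperidone (0.5 mg/kg), mianserin (20 mg/kg) and methamphetamine (2 mg/kg), with 4 libraries for each drug and tissue. Haloperidol and risperidone act as antipsychotics, mianserin and venlafaxine as antidepressants, methamphetamine as a psychostimulant and ketamine as an NMDA receptor antagonist. The controls received saline and comprise 8 libraries per tissue, 4 labelled set I and 4 labelled set II, and haloperidol and risperidone were dissolved in saline with a drop of HCl, while the controls are named only as saline. Whether a mouse gave both of its tissues, and whether a library holds 1 animal, is not stated in the sources used here. Without such a statement the p-values measure the spread between these libraries only.

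Several properties of the libraries bear on the values below. In the NAc the 16 libraries of saline I, haloperidol, risperidone and methamphetamine list 85287 to 87827 transcripts above 0 and the 16 of saline II, mianserin, venlafaxine and ketamine list 107099 to 110556, so that each drug lies in 1 of 2 sample sets. The division is not stated in the labels of the drugs, and what separates the sample sets was not tested. In the PFCx the counts overlapped (108878 to 110852 and 108556 to 110620), and the assignment of the drugs was carried over from the NAc. Each drug was therefore compared both with all 8 saline libraries and with the 4 of its own sample set. The tissue labels were checked against marker genes: all 10 markers of medium spiny neurons were higher in the NAc after saline and all 9 of cortical projection neurons in the PFCx. The depth behind the values, estimated from the coverage and the FPKM (the number of fragments scaled to transcript length and library size), was 1.52 to 3.26 gigabases of reads per library.

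The peptides are encoded in short stretches of the precursor that are mostly framed by codons for paired basic residues, where the precursor is cut. The coding sequences in GENCODE vM21 (GRCm38, the build named mm10 in the labels) show how the opioid precursors differ. The main Penk transcript (ENSMUST00000070375) holds 6 copies of the Met-enkephalin sequence and 1 of Leu-enkephalin, the main Pdyn transcript (ENSMUST00000028883) holds 3 of Leu-enkephalin, at the start of its dynorphin peptides, and Pnoc holds 1 nociceptin, whose start differs from an enkephalin in its first residue. Shown here in capitals are the codons of the peptide or of its named end, with the 6 bases on either side in lower case. The bases after Penk copies 4 (agaagc) and 6 (cggttc) do not encode a pair of basic residues.
Penk Met-enkephalin copy 1 (chr4:4134328-4134354, minus strand): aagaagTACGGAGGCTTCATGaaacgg
Penk Met-enkephalin copy 6 (chr4:4133842-4133868, minus strand): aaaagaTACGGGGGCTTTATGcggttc
Penk Leu-enkephalin (chr4:4133935-4133961, minus strand): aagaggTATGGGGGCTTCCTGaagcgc
Pdyn Leu-enkephalin copy 1 (chr2:129688232-129688258, minus strand): aaacgcTATGGCGGCTTTTTGcgcaaa
Pdyn Leu-enkephalin copy 3 (chr2:129688067-129688093, minus strand): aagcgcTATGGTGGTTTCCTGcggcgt
Pnoc start of nociceptin (chr14:65404875-65404898, minus strand): aaaaggTTTGGGGGCTTCaccggg
Tac1 end of substance P (chr6:7556744-7556770, plus strand): cagcagTTCTTTGGATTAATGggcaag
Tac1 end of neurokinin A (chr6:7559110-7559136, plus strand): gattccTTTGTTGGACTAATGggcaaa
Sst somatostatin-14 (chr16:23889729-23889779, minus strand): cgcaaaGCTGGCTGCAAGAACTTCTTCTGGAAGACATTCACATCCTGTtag

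After saline the members spanned a wide range of levels, and their order differed between the tissues. In the NAc, Penk was highest, at 232 ± 20.6 FPKM (SD, n = 8), followed by Tac1 at 63.3 ± 10.1, Pdyn at 37.2 ± 3.26 and Sst at 31.9 ± 4.93. Cartpt (12.3 ± 1.57), Npy (12.2 ± 2.56) and Cck (8.76 ± 5.73) came next, and the ranges of Cartpt and Npy and those of Npy and Cck overlapped. Vip reached 1.25 ± 0.507, Crh 0.486 ± 0.197 and Pnoc 0.401 ± 0.0748 FPKM. In the PFCx, Cck was highest, at 42.2 ± 17.01 FPKM, and was above Sst (25.6 ± 6.71) in 7 of 8 libraries. Npy (9.41 ± 2.05), Vip (9.13 ± 0.912) and Penk (8.01 ± 5.94) followed, with overlapping ranges, as did Pdyn (4.18 ± 0.637) and Tac1 (3.84 ± 1.59). Cartpt (0.836 ± 0.474), Crh (0.636 ± 0.236) and Pnoc (0.627 ± 0.186) were the lowest, and the ranges of neighbours in that order overlapped. These levels are scaled to transcript length, but short transcripts differed between the saline sets (below), so that the order of close members can depend on the set. Cck in the NAc was at 13.6 FPKM in saline I and 3.93 in saline II, and Npy at 13.5 and 11.0.

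**Figure D1:**
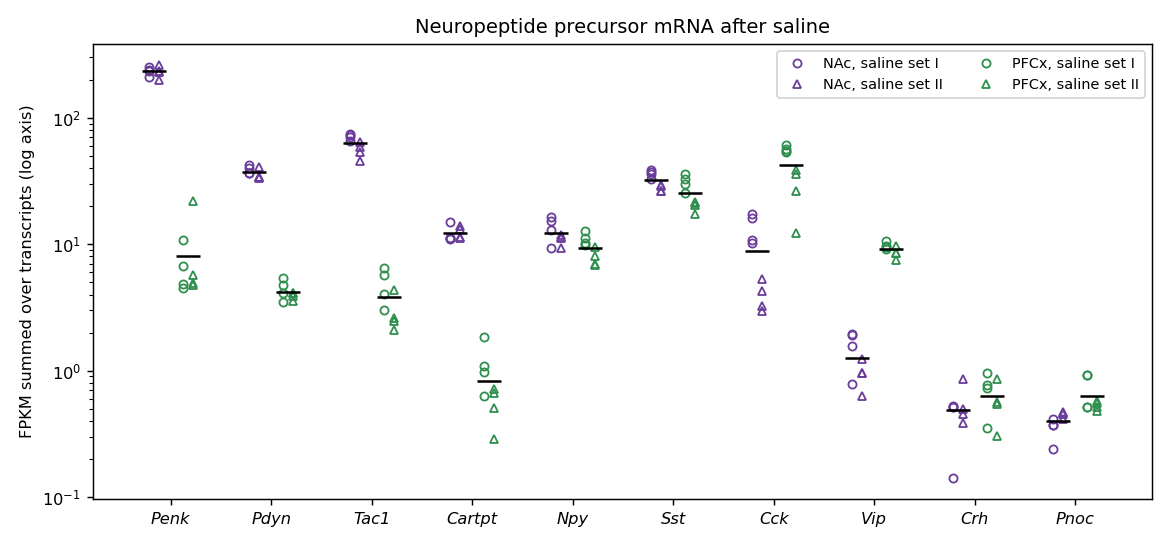
FPKM of the 10 precursor genes (summed over transcripts, log axis) in each saline library of the NAc (purple) and PFCx (green), with circles for saline set I, triangles for set II and black bars for the mean of 8. Penk, Pdyn, Tac1 and Cartpt lie higher in every NAc library than in any PFCx library, and Vip lies lower.

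Penk, Tac1, Pdyn and Cartpt were higher in the NAc. For Penk, the 8 NAc libraries ranged from 199.8 to 262.9 FPKM with a median of 234.7, and the 8 PFCx libraries from 4.51 to 21.8 with a median of 5.35. The difference, NAc minus PFCx, was 4.88 ± 0.24 (SE) on the log2(FPKM + 1) scale (limma, adjusted p = 8.9e-11). The 2 tissues did not overlap in Penk over all 64 libraries. Tac1 ranged from 45.8 to 74.7 FPKM in the NAc and from 2.11 to 6.46 in the PFCx, with medians of 64.9 and 3.51 and a difference of 3.78 ± 0.17 (limma, adjusted p = 3.88e-11). Pdyn ranged from 33.6 to 42.2 FPKM in the NAc and from 3.51 to 5.43 in the PFCx, with medians of 36.6 and 4.08 and a difference of 2.89 ± 0.07 (limma, adjusted p = 1.16e-13). Cartpt, whose peptides are released in the mesolimbic system, ranged from 11.0 to 14.9 FPKM in the NAc and from 0.287 to 1.83 in the PFCx, and differed by 2.88 ± 0.13 (limma, adjusted p = 2.75e-11). As ratios of the mean FPKM, the NAc was 29.0-fold higher in Penk, 16.5-fold in Tac1, 14.7-fold in Cartpt and 8.89-fold in Pdyn.

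Cck, Vip and Pnoc were higher in the PFCx. Cck ranged from 2.96 to 17.3 FPKM in the NAc, with a median of 7.72, and from 12.3 to 61.0 in the PFCx, with a median of 45.9, so that the tissues overlapped. Its difference, NAc minus PFCx, was -2.24 ± 0.38 (limma, adjusted p = 2.58e-04). Within saline set I the PFCx mean was 4.14-fold higher and within set II 7.17-fold. Vip ranged from 0.625 to 1.95 FPKM in the NAc and from 7.51 to 10.53 in the PFCx, without overlap, and differed by -2.199 ± 0.12 (limma, adjusted p = 2.57e-10). Pnoc differed by -0.21 ± 0.06 (limma, adjusted p = 0.0188), with all 8 PFCx libraries (0.48 to 0.931 FPKM) above the NAc (0.241 to 0.473). Over all 64 libraries the tissues overlapped in Pnoc, at 0.176 to 0.773 FPKM in the NAc and 0.399 to 1.31 in the PFCx. Within saline set I the PFCx mean of Pnoc was 2.06-fold higher and within set II 1.18-fold. Pnoc reads covered each base of the transcript about once or less. The median coverage over all libraries was 0.714 in the NAc against 0.72 in the PFCx, and so did not show the FPKM difference.

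For Npy, Sst and Crh the tissue difference did not pass the threshold. Npy was at 12.2 FPKM in the NAc against 9.41 in the PFCx, a difference of 0.35 ± 0.13 on the log2(FPKM + 1) scale (limma, adjusted p = 0.0502). With a term for the saline set in the fit, Npy (limma, adjusted p = 0.0146) and Sst (limma, adjusted p = 0.0022) passed, with differences of 0.35 and 0.33. Without that term Sst had an adjusted p of 0.0731 (limma). Crh differed by -0.14 ± 0.10 (limma, adjusted p = 0.279). In all, 4 members were called higher in the NAc and 3 were higher in the PFCx, against 33.9% of the 37034 genes tested.

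Penk in the PFCx was uneven between libraries. It lay between 3.49 and 6.70 FPKM in 26 of the 32 PFCx libraries and between 7.50 and 22.3 in the other 6. Those 6 libraries were risperidone replicate 3 (22.3 FPKM), saline II replicate 4 (21.8), ketamine replicates 3 (19.1) and 1 (18.1), saline I replicate 4 (10.8) and methamphetamine replicate 3 (7.50), so that they belong to no single treatment. The summed FPKM of the 10 medium spiny neuron markers was 52.6 to 107 in these 6 libraries and 43.2 to 58.6 in the other 26. In the NAc, where medium spiny neurons are the main cell type, that sum was 410 to 653. Adora2a, a receptor of the Penk-expressing neurons, was at 0.492 to 2.26 FPKM in the 6 libraries and at 0.168 to 0.491 in the other 26. Bcl11b, a marker that cortical neurons also express, was at 4.61 to 6.58 and 4.92 to 7.29. The part of other tissue in the Penk values of these libraries was not tested. Pdyn was also at its highest PFCx values in ketamine replicates 1 (7.0001 FPKM) and 3 (6.27), and Tac1 in risperidone replicate 3 (9.29 FPKM). They did not rise together in each of these libraries: saline II replicate 4, with the highest marker sum, had Pdyn at 4.09 and Tac1 at 4.35 FPKM, and risperidone replicate 3 had Pdyn at 4.84. Without replicate 4 of saline I and of saline II, the PFCx mean of Penk was 5.25 ± 0.824 FPKM (SD, n = 6) and the NAc mean was 44.3-fold higher. In bulk tissue, more cells of a type and more RNA per cell cannot be told apart.

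**Figure D2:**
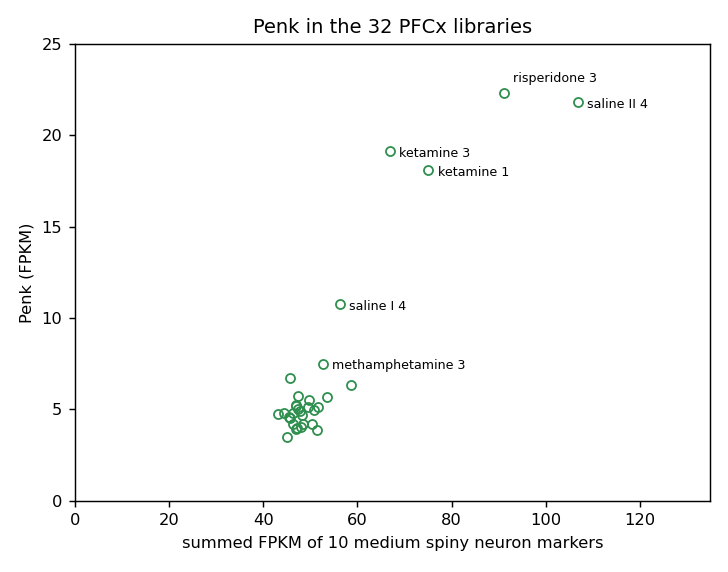
Penk (FPKM, vertical axis) against the summed FPKM of 10 medium spiny neuron markers (horizontal axis) in each of the 32 PFCx libraries, with the 6 libraries highest in Penk named. The 4 libraries above 15 FPKM of Penk also have the 4 highest marker sums.

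The transcripts of each gene were next considered, because Tac1, Penk and Pdyn have several. Npy, Sst, Cck, Vip, Cartpt, Crh and Pnoc each have 1 transcript in the tables. Penk has 2 annotated transcripts, which took 61.2% (ENSMUST00000070375) and 38.8% (ENSMUST00000133567) of its FPKM over the NAc libraries. The annotated coding part of the shorter one holds 3 of the Met-enkephalin copies. In the PFCx the first took 61.6%, so that the mean share was alike in both tissues while single libraries ranged from 40.5% to 84.4%. Pdyn came almost wholly from ENSMUST00000028883, which took 96.3% of its FPKM in the NAc against 90.1% in the PFCx. The other Pdyn transcripts, of which ENSMUST00000152113 retains an intron, reached at most 2.34 and 0.788 FPKM in any library.

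Tac1 has 5 transcripts, and 3 of them carry peptide. ENSMUST00000090679, whose coding sequence holds substance P and no neurokinin A, took 62.4% of the gene's FPKM in the NAc. ENSMUST00000184986 and ENSMUST00000185187, which hold both peptides, took 22.9% and 12.9%. After saline these were at 40.2 ± 7.54, 14.1 ± 2.48 and 7.95 ± 3.23 FPKM (SD, n = 8) in the NAc and at 1.76 ± 1.08, 0.846 ± 0.934 and 1.05 ± 0.421 in the PFCx. All 3 were called higher in the NAc (limma on 86331 transcripts, adjusted p = 1.05e-09, 1.75e-07 and 1.78e-06, where 13.7% of transcripts were called). These transcripts share most of their exons, so that the split between them is an estimate of the quantification.

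Against all 8 saline libraries, 1 of 60 member differences in the NAc passed the threshold, for venlafaxine, with which 1.83% of all genes were called. Tac1 was lower after venlafaxine, at 37.8, 53.3, 30.9 and 57.9 FPKM, against saline values from 45.8 to 74.7 with a median of 64.9. The difference was -0.51 ± 0.13 on the log2(FPKM + 1) scale (limma, adjusted p = 0.0478), and the groups overlapped. Against the saline libraries of set II (53.7, 45.8, 58.6 and 64.1 FPKM), it was -0.33 ± 0.14 and not called (limma, adjusted p = 0.816). Rescaling the libraries to a common 75th percentile turned the pooled difference to 0.053 and moved the median over all genes from 0.04 to 0.21. That percentile is taken over genes above 0, and the sample sets differ in the number of transcripts above 0. The rescaling is therefore no check of Tac1 apart from the sample set. Lower values after venlafaxine were not confined to Tac1 and Pdyn, the other D1 neuron precursor. With all saline libraries Cck differed by -0.78 ± 0.31, Sst by -0.30 ± 0.11, Npy by -0.24 ± 0.13 and Penk by -0.13 ± 0.09, none of them called. Cartpt, Vip, Crh and Pnoc differed by 0.06, 0.04, 0.10 and 0.04. Pdyn had a difference of -0.26 ± 0.09 after venlafaxine (limma, adjusted p = 0.0943) and -0.27 ± 0.09 after ketamine (limma, adjusted p = 0.0851). With the saline libraries of the sample set these were -0.20 ± 0.10 and -0.21 ± 0.10 (limma, adjusted p = 0.886 and 0.479). After ketamine, Pdyn was at 25.3, 32.2, 28.5 and 37.3 FPKM, against 33.6 to 42.2 in saline.

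Cartpt after methamphetamine in the NAc was the 1 member difference of the 120 in both tissues in which the libraries of a drug did not overlap the 8 saline libraries. It stood at 15.4, 15.99, 20.04 and 15.3 FPKM, against saline values of 11.2, 11.0, 11.2 and 14.9 in set I and 11.1, 11.5, 13.3 and 14.04 in set II. All 4 methamphetamine libraries were above all 8 saline libraries. The difference was 0.41 ± 0.10 on the log2(FPKM + 1) scale, 1.36-fold in mean FPKM, and did not pass the threshold (limma, adjusted p = 0.0771). An exact permutation test of that value alone gave p = 0.00202 (two-sided), the smallest that 4 libraries against 8 allow. That p restates the lack of overlap by which this difference was picked from the 120, and adds no support of its own. With the saline libraries of its sample set it was 0.44 ± 0.11 (limma, adjusted p = 0.213). With genes below a mean of 1 FPKM left out, the pooled difference passed (limma, adjusted p = 0.0493). Under methamphetamine, 0.194% of all genes were called against all saline libraries and 0.0891% against those of the sample set.

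Vip, the precursor of an interneuron class that is sparse in the NAc, was at 2.1997, 1.92, 2.47 and 1.32 FPKM after ketamine. The saline libraries of its sample set were at 1.24, 0.963, 0.956 and 0.625, all below the ketamine libraries, while those of set I were at 1.91, 1.56, 0.783 and 1.95. Against the former the difference was 0.61 ± 0.16, 2.09-fold in mean FPKM (limma, adjusted p = 0.0589), and against all 8 it was 0.42 ± 0.15 (limma, adjusted p = 0.106). When a block for the replicate number was added to the fit with the sample set, the difference of 0.61 passed the threshold (limma, adjusted p = 0.00975). In the PFCx, Vip after ketamine was at 7.61, 7.71, 9.02 and 8.99 FPKM, against 8.56, 9.61, 8.57 and 7.51. The difference between the tissues in the ketamine effect on Vip was 0.64 ± 0.18 with the saline libraries of the sample set, which passed the threshold (limma, adjusted p = 0.0459, where 2.02% of genes were called), and 0.54 ± 0.17 with all saline libraries, which did not (limma, adjusted p = 0.0936, with 0.313% called). For Pdyn after ketamine that difference was -0.57 ± 0.15 and -0.58 ± 0.17 with either control (limma, adjusted p = 0.0607 for all saline and 0.0625 for the sample set). It includes the PFCx ketamine libraries 1 and 3 named above. After ketamine in the NAc, 3 of 6 oligodendrocyte markers were higher with the sample set and 2 of 6 with all saline libraries, and the median of the 9 cortical projection neuron markers was 0.26 with all saline libraries, with 1 called. The median of the 10 medium spiny neuron markers was -0.20, with 1 called lower, and -0.17 with the sample set, with 0 called in limma, where all genes had medians of 0.05 and 0.02. Beside Pdyn, the differences of Tac1 and Penk with all saline libraries were -0.32 and -0.21. The part of these cells in the Vip and Pdyn values was not tested. Over the 6 drugs, no member passed this test of the difference between tissues with all saline libraries (0.0873% of tests over all genes called) and 1, Vip, with those of the sample set (0.402%).

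**Figure D3:**
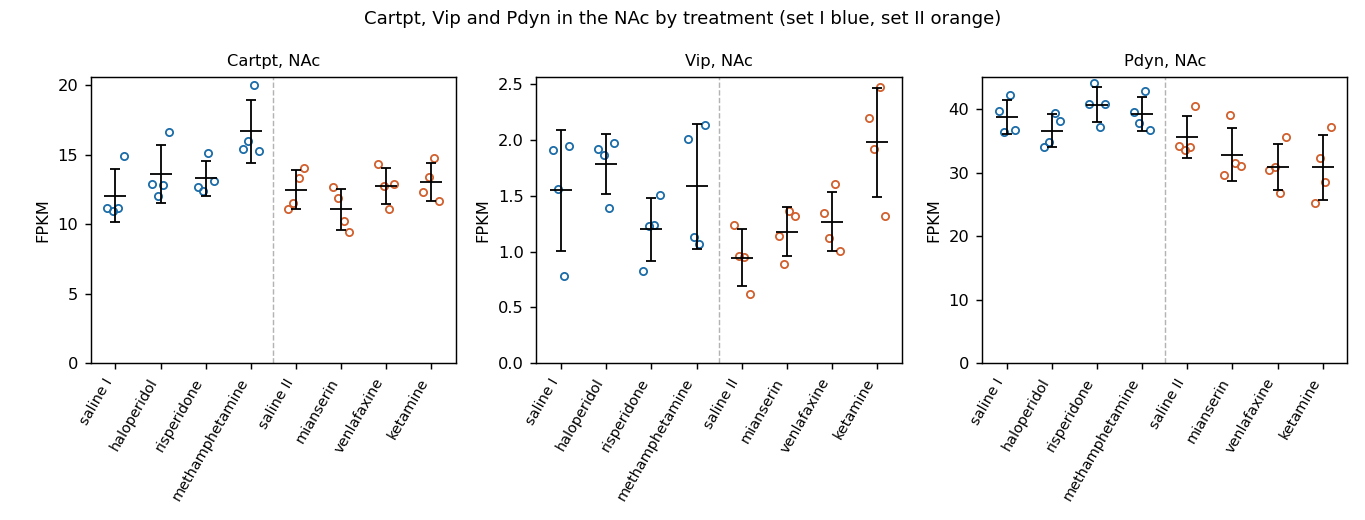
FPKM of Cartpt, Vip and Pdyn in each NAc library by treatment, with set I in blue and set II in orange, black bars for the mean and error bars for the SD of 4 libraries. The 4 methamphetamine libraries lie above every saline library in Cartpt, and the 4 ketamine libraries above those of saline II in Vip.

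Of the remaining members none was called against saline in the NAc, with either control. With all saline libraries 15 of the 60 NAc differences had an unadjusted p under 0.05 and with the sample set 5, and the adjusted p was lowest at 0.0478 and 0.0589 (limma). The share of all 37034 genes called in the NAc was 1.97% for ketamine, 1.84% for mianserin, 1.83% for venlafaxine, 0.729% for risperidone and 0.721% for haloperidol. With the saline libraries of the sample set these shares were, in the same order, 0.967%, 0.273%, 0.0081%, 0.213% and 0.235%. Penk, which lies in neurons that carry the receptor haloperidol blocks, was at 223.9, 195.8, 261.1 and 247.8 FPKM after haloperidol in the NAc, of which 1 library lay below the saline range of 199.8 to 262.9. After ketamine it was at 175.2, 203.8, 194.2 and 228.6, a difference of -0.21 ± 0.09 (limma, adjusted p = 0.175) that became -0.20 ± 0.11 with the sample set (limma, adjusted p = 0.541).

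In the PFCx 0 of 60 member differences passed the threshold in limma with either control, while 11 had an unadjusted p under 0.05 with all saline libraries and 9 with those of the sample set. Of all genes, 0.0162% were called for ketamine, 0.667% for mianserin, 0.0054% for venlafaxine, 0.51% for risperidone, 0.351% for methamphetamine and 0.162% for haloperidol, and with the sample set 1.51%, 2.01%, 0.74%, 0.162%, 0.159% and 0.0216%. The lowest adjusted p was 0.105 (limma), for Npy after mianserin against its own saline set. Npy stood at 10.7, 9.53, 13.0 and 10.9 FPKM there, against 6.95, 9.55, 6.88 and 7.999, and the difference was 0.45 ± 0.14. With all 8 saline libraries the Npy difference was 0.23 ± 0.14 (limma, adjusted p = 0.651). The saline I libraries, at 10.97 ± 1.31 FPKM (SD, n = 4), were near the mianserin mean of 11.05. They were all above saline II in Npy (limma, difference 0.44, adjusted p = 0.0597). Against the 4 saline II libraries, Npy also differed by 0.42 after ketamine and 0.34 after venlafaxine, and Sst by 0.35 after mianserin, 0.34 after ketamine and 0.27 after venlafaxine. The 3 drugs share these controls. Sst after mianserin was at 33.1, 23.3, 24.4 and 23.6 FPKM, all above the saline II libraries at 20.5, 21.4, 21.3 and 17.2, but within the range of all saline libraries (17.2 to 36.1). The SE of a member difference in the PFCx ran from 0.08 to 0.39 on the log2(FPKM + 1) scale with all saline libraries, with the largest for Penk.

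**Figure D4:**
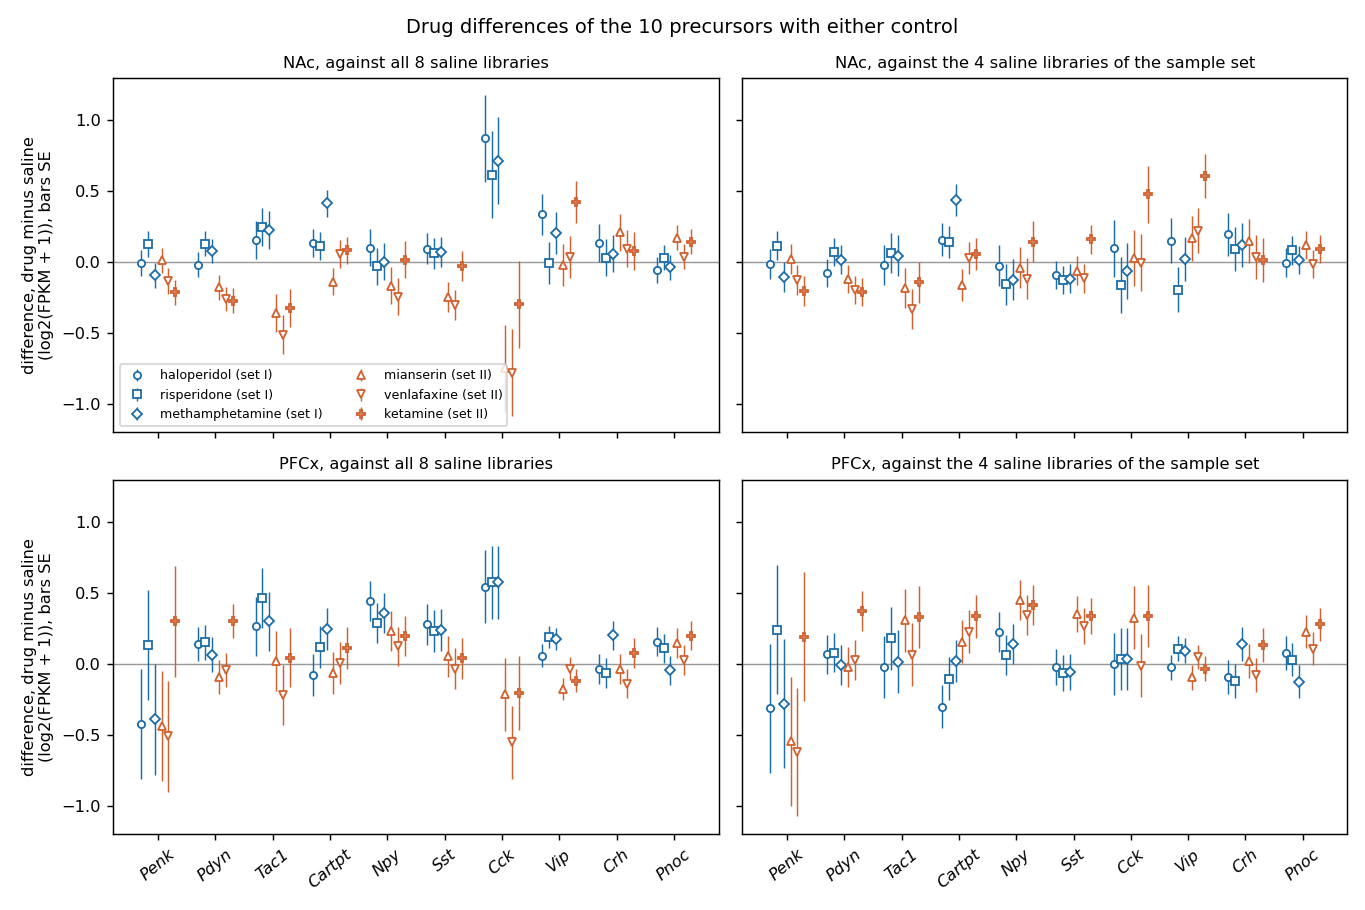
Difference of each drug from saline (log2(FPKM + 1), bars SE from limma) for the 10 precursors in the NAc and PFCx, against all 8 saline libraries (left) or the 4 of the sample set (right), with set I drugs in blue and set II drugs in orange. On the left, the 3 drugs of set I lie above 0 in Cck and the 3 of set II below 0 in both tissues, a division that is absent on the right.

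Cck, Tac1 and Sst differed between the saline libraries of the 2 sample sets, with set I the higher. In the NAc after saline, Cck was at 10.8, 17.3, 10.2 and 16.1 FPKM in set I and at 5.27, 3.25, 4.26 and 2.96 in set II, without overlap, and the difference was 1.55 (limma, adjusted p = 0.00582). Over all 32 NAc libraries of the sets, every library of set I was above every library of set II, with means of 13.2 and 4.41 FPKM. In the PFCx the saline values of Cck were 61.0, 53.1, 54.3 and 56.3 in set I and 38.6, 35.7, 26.3 and 12.3 in set II, again without overlap (limma, difference 1.08, adjusted p = 0.0766). Over all 32 PFCx libraries the means were 56.9 and 30.4 FPKM, and the sets did not overlap. Tac1 in the NAc was at 73.1, 71.0, 65.6 and 74.7 FPKM in saline I and at 53.7, 45.8, 58.6 and 64.1 in saline II (limma, adjusted p = 0.048). Sst differed between the saline sets in both tissues, by 0.37 in the NAc and by 0.60 in the PFCx (limma, adjusted p = 0.0109 and 0.0182). In all, 3 of 10 members (Cck, Tac1 and Sst) were called between the saline sets in the NAc, against 17.2% of all genes, and 1 of 10, Sst, in the PFCx, against 6.57%. The NAc libraries of saline I were also higher in all 6 oligodendrocyte markers and in 3 of 6 microglia markers, with medians of 0.33 and 0.31 on the log2(FPKM + 1) scale, against -0.08 over all genes. The 9 cortical projection neuron markers had a median of 0.28 with 1 called higher, and 1 of 6 astrocyte markers (median 0.15) was called higher. In the PFCx 0 of the markers in these 4 lists were called in limma. The part of these cells in the precursor differences was not tested.

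**Figure D5:**
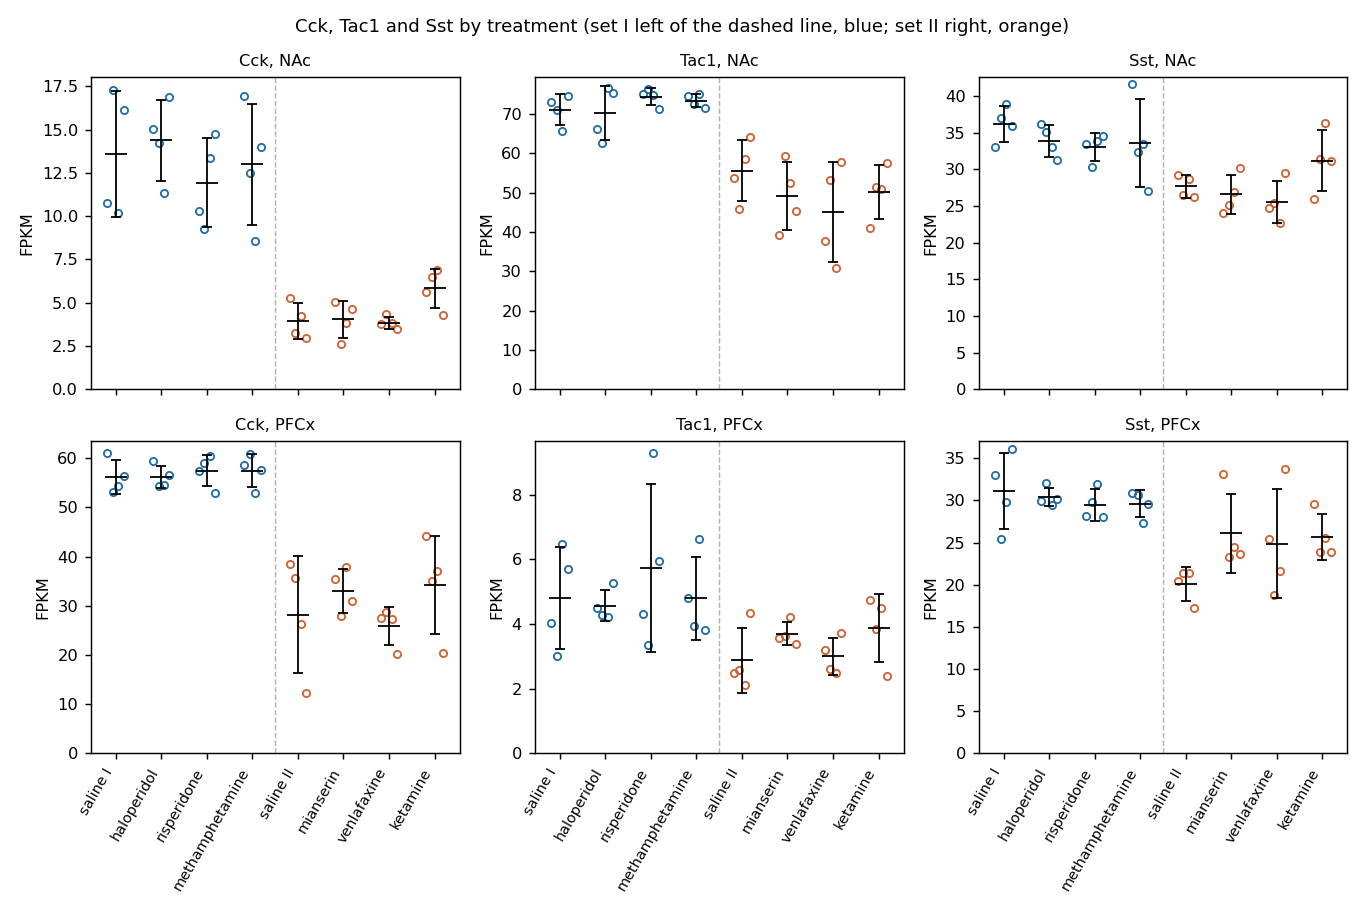
FPKM of Cck, Tac1 and Sst in each library by treatment in the NAc (top) and PFCx (bottom), with sample set I left of the dashed line in blue and set II right of it in orange, black bars for the mean and error bars for the SD of 4 libraries. Cck separates the sample sets in both tissues with no overlap, whatever the drug.

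The transcripts of Cck, Tac1 and Sst are short, and short transcripts in general were higher in saline set I. Of the 10 members, 5 have a main transcript below 1000 bases, and the lengths range from 566 for Npy to 2386 for Pdyn. Among genes with a mean of at least 5 FPKM, the median difference between the saline sets in the NAc was 0.21 for transcripts of 500 to 700 bases, 0.08 for 2000 to 3000 and 0.01 from 5000 on the log2(FPKM + 1) scale. In the PFCx it was 0.26, 0.02 and -0.03. Among genes of 500 to below 1000 bases, 1 of 816 had a larger difference than Cck (685 bases) in the NAc and 61 of 814 in the PFCx. In the NAc, 32.6% of that class had a larger difference than Tac1 (980 bases) and 30.5% a larger one than Sst (599 bases). The other short members differed less there: Npy (566 bases) by 0.25, with 44.1% larger, and Cartpt (874 bases) by -0.05, with 84.8% larger. In the PFCx these shares were 23.1% for Tac1, 21.6% for Sst, 31.6% for Npy and 31.1% for Cartpt. The part of the library preparation or of the animals in these differences was not tested.

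An F test over the 6 drugs together called Pdyn, Tac1, Cartpt, Sst and Cck in the NAc when all saline libraries were the control (limma, adjusted p from 0.000836 for Tac1 to 0.035 for Sst). That is 5 of 10 members, against 36.9% of all genes. With each drug set against the saline libraries of its sample set, 0 members were called (1.63% of genes), and Vip and Cartpt had an unadjusted p under 0.05. In the PFCx 0 members passed with either control (3.34% and 1.45% of genes). At the level of single transcripts 0 of the 17 member transcripts passed for any drug in limma, where 0.193% of tests over all transcripts were called in the NAc against 0.107% in the PFCx, and 0.114% and 0.285% with the sample set. The lowest adjusted p was 0.0789, for the Tac1 transcript ENSMUST00000090679 after venlafaxine in the NAc, at -0.66 ± 0.15.

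Genes that act on the same peptides were read from fixed lists. Over all genes 33.9% were called between the tissues after saline, and 21.1% of those calls were higher in the NAc. Among 22 peptide receptors, 5 had the higher level in the NAc and 11 had it in the PFCx. Oprk1, the receptor of the dynorphins, was at 6.81 FPKM in the NAc against 1.14 in the PFCx (limma, difference 1.88, adjusted p = 1.19e-11), and Cckbr, the cholecystokinin B receptor, at 2.53 and 11.1 (limma, difference -1.77, adjusted p = 4.32e-10). Of 15 genes of peptide processing and secretion, 1 was higher in the NAc and 9 were higher in the PFCx. The former was Scg2, a secretogranin of dense core vesicles, at 61.0 against 24.4 FPKM. Pcsk1, a convertase that cuts precursors, was the most different of those higher in the PFCx, at 2.42 in the NAc and 7.09 there. Among 8 peptidases and binding proteins, Mme, which degrades enkephalins, was at 4.31 FPKM in the NAc against 1.17 in the PFCx, and Crhbp, which binds Crh, at 1.90 and 3.41. In these 3 lists the median difference was -0.13, -0.31 and -0.19 on the log2(FPKM + 1) scale, against -0.10 over all genes. Of 22 further precursors tested, 2 were higher in the NAc and 6 were higher in the PFCx, led by Grp (0.0938 against 4.82 FPKM) and Adcyap1 (0.699 against 5.46).

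Some of these genes were called after a drug where the precursors were not. Nts, the neurotensin precursor, was at 5.98 ± 0.952 FPKM (SD, n = 4) after haloperidol in the NAc and at 2.95 ± 0.418 in saline (n = 8), a difference of 0.82 ± 0.14 (limma, adjusted p = 0.00182) that was 0.80 with the sample set (limma, adjusted p = 0.0262). Pcsk1 in the NAc after methamphetamine was at 4.38 ± 0.676 against 2.42 ± 0.391 FPKM (limma, adjusted p = 0.00188), and with the sample set the difference of 0.66 also passed (limma, adjusted p = 0.0149). Scg2 after haloperidol rose by 0.33 ± 0.05 (limma, adjusted p = 0.00101), or 0.26 with the sample set (limma, adjusted p = 0.0357). Npy1r, a neuropeptide Y receptor, fell in the PFCx after mianserin, from 3.37 ± 0.464 to 2.19 ± 0.142 FPKM (limma, adjusted p = 0.00682), and by 0.49 with the sample set (limma, adjusted p = 0.00688). Sstr2 after haloperidol (4.26 against 2.62 FPKM) and Vipr1 after risperidone (4.08 against 2.53 FPKM) in the NAc were called with all saline libraries (limma, adjusted p = 0.00775 and 0.0155) and not with the sample set (limma, adjusted p = 0.112 and 0.166). So were Ptprn after risperidone (53.8 against 45.3 FPKM) and Thop1 after haloperidol (10.2 against 8.08 FPKM) in the NAc (limma, adjusted p = 0.0221 and 0.0403, with the sample set 0.202 and 0.346). Of the 15 processing and secretion genes, haloperidol in the NAc called 4 with all saline libraries and 1 with the sample set. The shares of all genes were 0.721% and 0.235%. No drug contrast called more than 4 genes of any of these lists.

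For a description of patterns over libraries, each member was compared with all genes of at least 1 FPKM in the tissue where it was higher, over 32 libraries, after the mean of each group of 4 was subtracted. Penk was most like Rpsa (r = 0.84) and Adora2a (r = 0.83) in the NAc. Pdyn was most like Stk32a (r = 0.83) and Pde8b (r = 0.82), and Tac1 most like Vstm2l (r = 0.87) and Apoe (r = 0.86). Cartpt was most like Lyrm7 (r = 0.70) and Tmem219 (r = 0.68), Npy like Oxsr1 and Rps4x (r = 0.79 for both), and Sst like Hexim1 (r = 0.73) and Spg20 (r = 0.71). In the PFCx, Cck was most like Vstm2l and Olfm1 (r = 0.88 and 0.87), and Vip like Aqp4 (r = 0.77) and Lin7a (r = 0.75). The values share library, depth and dissection and are the highest among 15094 genes in the NAc or 15699 in the PFCx, so that high values are reached by selection. Crh and Pnoc were below 1 FPKM and were left out.

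The promoters of 3 members are shown because Cartpt and Vip gave the drug differences described above and because Cartpt and Sst hold the whole cAMP response element. Each is the 250 bases before the transcription start in RefSeq (GRCm38.p6), 5' to 3' on the gene's strand. Capitals mark TGACGTCA (the cAMP response element), its core TGACG and TATAAA, each searched on both strands, as was the AP-1 motif TGANTCA, which these 3 windows do not hold and 6.75% of promoters do. Cartpt holds TGACGTCA at position -112 and Sst at -48, counted from the start, as do 1.55% of 32851 promoters. The core lies within it. Of the element Vip holds only the core TGACG, at -79, as do Tac1 at -197 and -43 and Cck at -47, and 17.8% of promoters hold that core. Vip also holds TATAAA at -157, -147 and -30, which 12.4% of promoters hold. A match is a description of the letters and not of binding. RefSeq gave a promoter for 7 members in all, and Penk, Crh and Pnoc had none in the table used.
Cartpt (chr13:99900684-99900933, minus strand): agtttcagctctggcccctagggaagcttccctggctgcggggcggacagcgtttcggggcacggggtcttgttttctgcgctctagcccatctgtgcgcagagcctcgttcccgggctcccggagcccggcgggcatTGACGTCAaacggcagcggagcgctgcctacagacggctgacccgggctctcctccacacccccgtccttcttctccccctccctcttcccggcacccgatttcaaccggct
Vip (chr10:5638968-5639217, plus strand): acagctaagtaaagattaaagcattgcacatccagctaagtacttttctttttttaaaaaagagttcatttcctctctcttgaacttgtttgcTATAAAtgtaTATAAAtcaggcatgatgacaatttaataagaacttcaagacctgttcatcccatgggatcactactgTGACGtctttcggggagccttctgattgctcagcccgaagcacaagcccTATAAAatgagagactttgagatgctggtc
Sst (chr16:23890845-23891094, minus strand): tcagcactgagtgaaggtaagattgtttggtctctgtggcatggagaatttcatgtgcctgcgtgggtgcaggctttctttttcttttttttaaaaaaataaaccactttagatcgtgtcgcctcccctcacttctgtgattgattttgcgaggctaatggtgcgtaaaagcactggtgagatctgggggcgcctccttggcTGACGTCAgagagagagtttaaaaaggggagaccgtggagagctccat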

How the data were processed

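Ribosomal-RNA-depleted total RNA was sequenced as single-end Ion Torrent reads. Per the labels and the study's methods, the authors aligned with TopHat2 2.0.1 and Tmap and quantified transcripts of the Ensembl annotation with Cufflinks 2.2.1 on mm10; the deposited tables hold FPKM with its confidence bounds and a coverage signal per transcript, and no counts. FPKM was summed per gene. Genes with a mean of at least 0.1 FPKM in either tissue (37034) were tested on log2(FPKM + 1) with limma 3.58.1 in R 4.3.3, Benjamini-Hochberg adjusted over all genes of a contrast, at an adjusted p of 0.05. A fold change on this scale is smaller than that of FPKM for low genes. Single values were also given exact two-sided permutation tests (495 splits for 4 against 8 libraries, 70 for 4 against 4). The scripts were tested on simulated data. Members and lists were chosen with earlier results of these data known. Members are all 10 genes; lists name up to 3 genes per list called after a drug and the 2 with the largest tissue difference. The comparison of the saline sets, the length classes and the marker sums beside Penk were added after seeing the data. The 10 members and all 17 transcripts passed the filter. Penk overlaps A830012C17Rik (1.45 FPKM in the NAc), and reads in the overlap may be shared. Coordinates are 1-based on GRCm38.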

Additional observations from a re-analysis of the deposited data

Results flagged for a closer look

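Of 160 groups of 4 libraries (10 genes, 16 groups), 9 had a library far from the other 3, or 5.63%, where chance gives about 1 in 20. For Penk in the PFCx these were risperidone replicate 3 at 22.3 FPKM (others 4.58 to 6.33) and saline II replicate 4 at 21.8 (others 4.79 to 5.75), the libraries with the 2 highest sums of medium spiny neuron markers, 91.1 and 107. Pdyn was at 40.5 FPKM in NAc saline II replicate 4 (others 33.6 to 34.1). Cartpt was at 20.04 in NAc methamphetamine replicate 3 (others 15.3 to 15.99) and at 14.9 in NAc saline I replicate 4 (others 11.0 to 11.2). Sst was at 33.1 in PFCx mianserin replicate 1 (others 23.3 to 24.4), and Vip at 7.04 in the same library (others 8.15 to 8.31). Crh was at 0.141 in NAc saline I replicate 4 (others 0.512 to 0.522), and Pnoc at 0.682 in NAc risperidone replicate 3 (others 0.32 to 0.372). The effect of ketamine on Vip differed between the tissues by 0.64 on the log2(FPKM + 1) scale against the saline libraries of the sample set (limma, adjusted p = 0.0459).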

How the results depend on the processing

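The 1 drug call in the NAc, Tac1 after venlafaxine, was lost with a pseudocount of 0.1 (0 calls), with the saline libraries of the sample set (0) and under a block for the replicate number (0). It was also lost with saline II alone (limma, adjusted p = 0.897). With genes below a mean of 1 FPKM left out it did not pass either (limma, adjusted p = 0.054), while Cartpt after methamphetamine passed. Leaving out 1 library gave 0 to 1 calls (Tac1 difference -0.64 to -0.35). Other settings added calls. Vip after ketamine in the NAc passed with the sample set and the block together (limma, adjusted p = 0.00975). It also passed with saline II alone (limma, adjusted p = 0.0346) and with a common 75th percentile (limma, adjusted p = 0.00327). A common 75th percentile, taken over the genes above 0 in each library and so not apart from the sample set in the NAc, gave 8 NAc calls. It moved the median over all genes from 0.04 to 0.21 for venlafaxine and from -0.05 to -0.18 for haloperidol, turned Tac1 after venlafaxine to 0.053 and Sst after ketamine to 0.44, and 99.2% of the venlafaxine calls over all genes were then higher, against 60.1%. For the tissues 4.30% of calls were then higher in the NAc, against 21.1%, and no member turned. With saline I or saline II alone as control the counts were 10 and 9 for the NAc, and 3 and 11 for the PFCx in place of 0. All calls with saline I alone were for drugs of set II. Those with saline II alone were for drugs of set I, apart from Vip after ketamine in the NAc. In a comparison across the sample sets, drug and sample set cannot be told apart. The F test in the NAc had 9 calls with the common 75th percentile, and 0 with the sample set, with or without the block. In the PFCx it had 2 with a mean FPKM of at least 1 and 2 with the block. The difference between the tissues had 1 call with the common 75th percentile and 1 with the sample set. The tissue difference gave 7 to 9 calls without single libraries. Replicate numbers were not taken to pair the libraries in the main fits, since not every same-numbered pair correlated over 0.1 (58 of 112 in the NAc, 47 of 112 in the PFCx). The mean correlation was 0.0925 for the NAc and 0.102 for the PFCx. It was 0.127 within set I (66 of 112 over 0.1), 0.0552 within set II (42 of 112) and -0.0868 for saline across tissues. Pairs of different number had means of -0.0309, -0.0305, -0.0402, -0.0173 and 0.0123. The mean of each group of 4 was subtracted first. The means for different numbers therefore follow largely from those for the same number and add nothing to them. Within each tissue the mean correlation of libraries that share a number was above 0, so that a shared structure by number is not excluded. What the numbers stand for is not stated. The cause of these changes was not tested. Depth limits Crh and Pnoc, whose coverage was near 1 or less. Coverage was also low for Cartpt in the PFCx (median 1.20, minimum 0.329) and for Vip in the NAc (median 2.95, minimum 1.29).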
